A study of Mus musculus with 76 samples.

Results

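The broad H3K27me3 domains of the embryonic mouse diencephalon were examined: regions in which peaks of trimethylated histone H3 lysine 27, joined where they lay within 1 kb of each other, reached 10 kb or more in both wild type E11.5 lists or in all 3 wild type E17.5 lists. The domains were thus chosen by their measured wild type length. E11.5 gave 611 such domains and E17.5 gave 897. Domains of the 2 stages that overlapped were merged, which left 1024 domains of the 16535 H3K27me3 regions called in every wild type list of a stage. Of these, 472 met the rule at both stages, 129 at E11.5 only and 423 at E17.5 only. Because wild type lengths made the choice, they are described without a test.

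The study compared homozygous wild type C57BL/6J embryos with embryos of a line on the same strain, homozygous for the human sequence of the enhancer hs754 in place of its mouse counterpart on chromosome 13 (hs754-humanized, made with CRISPR). Each replicate was dissected diencephalon pooled from embryos of 1 litter, 6 embryos at E11.5 and 3 at E17.5, so that cell types were mixed in a sample. Each genotype had 2 ChIP-seq replicates of H3K27me3, H3K4me3 and H3K27ac at the younger stage and 3 at the older one. CTCF was profiled at E17.5 alone, with 3 replicates, and RNA-seq had 4 for every genotype and stage. No agent was given. Apart from the humanized lists, which served as an independent repeat of the stage comparison, all groups described were wild type.

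H3K27me3 is deposited by Polycomb repressive complex 2, which is recruited to unmethylated CpG-rich DNA of genes that are not transcribed. In neural tissue the mark is best known on developmental transcription factors, of which a given cell uses a few and keeps the others silent. Long stretches of it cover gene clusters such as Hox. CTCF is a zinc-finger protein that binds DNA at fixed motifs and, with cohesin, anchors chromatin loops.

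Some libraries stood apart and were considered first. Joined H3K27me3 on chromosome X covered 9.69 and 4.03 Mb in the wild type E11.5 lists, but 0.715, 0.492 and 27.3 Mb in the wild type E17.5 lists, and from 0.392 to 30.1 Mb in the humanized lists. Results that X could set are therefore also given for the 983 autosomal domains. The lists also differed in how much was called over all chromosomes, from 39.4 to 54.9 Mb at E11.5 and from 65.4 to 101 Mb at E17.5 in wild type. Among the RNA samples, which held 16414369 to 24272569 reads counted on genes, wild type E17.5 replicate 1 had correlations of 0.888 to 0.939 with the other E17.5 samples across 16629 genes, whereas the highest correlation of every other sample with a sample of its stage was 0.990 or more. Of 446 genes inside domains with over 1 CPM (counts of a gene relative to the library's total, scaled by TMM) on average at E17.5, 291 had their highest wild type E17.5 value in that sample. Summed CPM of 55 diencephalon factors lay between 3730 and 4440 in wild type at E11.5 and between 2530 and 3090 at E17.5, against 82.4 to 104 and 129 to 174 for 9 telencephalon markers.

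The sequence underneath the domains differed with their location. The domains had a median GC content of 47.1% and 17.2 CpG dinucleotides per kb, against 41.7% and 8.26 per kb over the genome. Domains of both stages held 18.9 CpGs per kb, E17.5-only domains 15.7 and E11.5-only domains 9.91 (12.9 for the 97 on autosomes). The 13586 E17.5 regions that were not domains held 14.6 CpGs per kb. Their GC content was 47.2%, so the raised GC was shared by shorter regions. To show this range, 250 bases are printed from each of 4 domains, with every CG in capitals. The first pair lies directly upstream of the annotated starts of Six6 (chr12:72986416-72986665, plus strand), an eye and hypothalamus homeobox factor, and Helt (chr8:46747709-46747958, minus strand), a bHLH factor of GABAergic neurons. The second pair lies in the middle of the domain that grew most between stages, near Bora (chr14:99089216-99089465, plus strand), and of the one that shrank most, within Ptn (chr6:36753795-36754044, plus strand). All are from the mm39 build. A domain named as within a gene, here and below, overlapped the body of that gene and need not lie wholly inside it.
Six6: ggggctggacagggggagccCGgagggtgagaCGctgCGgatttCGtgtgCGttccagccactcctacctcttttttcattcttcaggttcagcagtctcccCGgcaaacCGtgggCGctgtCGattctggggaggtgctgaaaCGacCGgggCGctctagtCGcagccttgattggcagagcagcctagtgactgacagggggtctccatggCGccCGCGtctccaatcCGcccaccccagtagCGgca
Helt: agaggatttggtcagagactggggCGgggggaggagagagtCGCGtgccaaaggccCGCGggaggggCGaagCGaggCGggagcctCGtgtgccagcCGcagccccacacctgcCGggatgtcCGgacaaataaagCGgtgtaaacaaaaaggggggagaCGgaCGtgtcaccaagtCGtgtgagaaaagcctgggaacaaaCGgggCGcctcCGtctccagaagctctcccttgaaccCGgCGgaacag
near Bora: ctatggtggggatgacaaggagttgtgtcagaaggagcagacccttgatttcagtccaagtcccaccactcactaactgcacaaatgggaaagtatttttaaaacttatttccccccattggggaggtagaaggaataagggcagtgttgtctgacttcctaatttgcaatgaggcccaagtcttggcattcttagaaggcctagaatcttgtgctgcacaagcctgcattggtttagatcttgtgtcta
within Ptn: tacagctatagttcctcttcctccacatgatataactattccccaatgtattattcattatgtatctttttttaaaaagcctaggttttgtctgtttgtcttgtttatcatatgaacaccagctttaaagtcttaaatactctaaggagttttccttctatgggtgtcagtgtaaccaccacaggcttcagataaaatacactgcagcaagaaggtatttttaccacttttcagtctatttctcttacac
The upstream stretches of Six6 and Helt held 18 and 21 CGs, while the stretches near Bora and within Ptn held 0. The same 250 bases upstream of Olig3, which is described below for its RNA, held 4 CGs. Over all genes the 2-letter motif CG was common: 20004 of 21751 protein-coding genes had at least 1 CG in the 250 bases upstream, with a median of 6, and 748 of the 757 genes that started inside a domain had 1 or more, with a median of 11.

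The longest autosomal domains covered the Hox clusters, which set regional identity along the body axis behind the forebrain. The length of a domain in a list is here the summed length of all joined regions of that list that touch the merged span, so that it can add up several regions and can reach beyond the span. The HoxC domain, from Hoxc13 to Hoxc4 (chr15:102801297-103042365), had summed lengths of 233 and 222 kb in the E11.5 lists and 240, 240 and 235 kb in the E17.5 lists. The HoxA domain, which also held Evx1 (chr6:52115818-52310540), measured 187 and 177 kb, then 195, 191 and 192 kb. The HoxD domain with Evx2 (chr2:74469165-74612078) measured 129 and 128 kb at E11.5, and 143, 140 and 139 kb at E17.5. The HoxB genes from Hoxb9 to Hoxb1 lay in a domain (chr11:96136024-96277589) of 139 and 136 kb at E11.5, and of 142, 140 and 140 kb at E17.5. The E17.5 lengths of these 4 domains were thus above both E11.5 lengths, by at most 0.13 on the scale of log2(length + 1 kb). In the humanized lists, HoxC was instead shorter at E17.5 by a log2 difference of -0.10 ± 0.02 (SE, limma, adjusted p = 0.0309, 2 against 3 lists).

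Other long autosomal domains lay over single factors of regional identity. Nkx2-1, which specifies hypothalamus, lay in a domain (chr12:56476318-56596477) of 79.2 and 75.4 kb at E11.5 that measured 120, 112 and 120 kb at E17.5. The domain of Dbx1, a progenitor factor, went from 72.8 and 63.0 kb to 102, 99.1 and 99.6 kb (chr7:49262845-49365125). That of Tbx5, a limb and heart factor (chr5:119908474-119997861), went from 60.2 and 52.7 kb to 89.4, 87.9 and 88.0 kb. The wild type lists of the 2 stages did not overlap for any of these domains. They were named for their wild type length at E17.5, so nothing is read from this. In the humanized lists, which the choice did not use, all 3 were longer. The log2 differences were 0.38 ± 0.04 for Nkx2-1, 0.37 ± 0.06 for Dbx1 and 0.50 ± 0.04 for Tbx5 (limma, adjusted p = 0.0051, 0.0156 and 0.00256). Pax3, a dorsal neural tube and neural crest factor, and Dmbx1, a midbrain factor, lay in domains of 114 and 105 kb span, whose humanized lengths did not pass the test (adjusted p = 0.0753 and 0.112). A further domain of 100.2 kb span covered Hoxb13. The median span was 19.6 kb at E11.5 and 21.5 kb at E17.5, and 30 and 69 domains reached 50 kb.

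**Figure D1:**
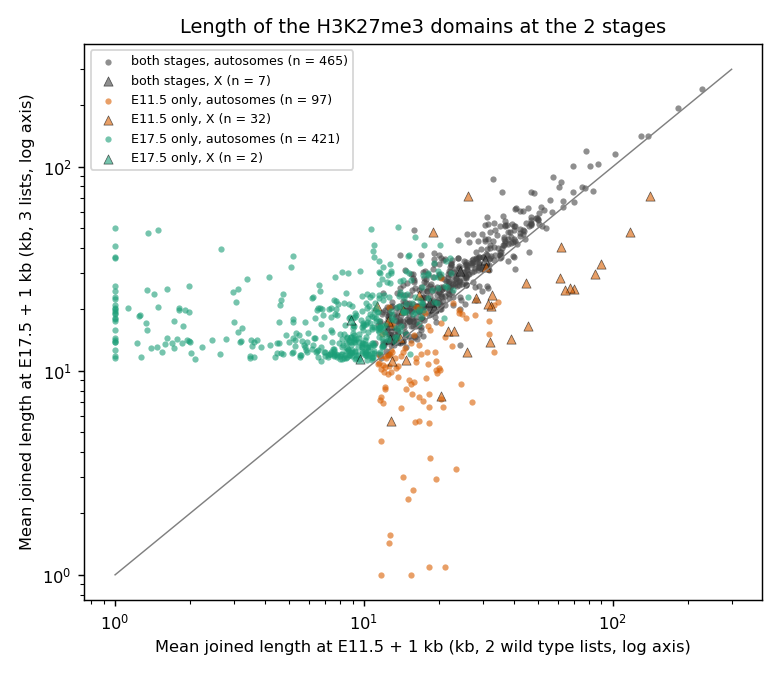
Mean joined length of each domain in the wild type lists at E11.5 (x axis) and E17.5 (y axis), both in kb plus 1 kb on log axes, with the diagonal marking equal length. Colours give the stages at which a domain met the 10 kb rule, and triangles are X-linked domains. Most points of both stages lie above the diagonal, and 25 domains of E17.5 had no peak in either E11.5 list.

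Members next to the 10 kb limit had shortest lists of 10002 and 10007 bp at E11.5 and of 10001 and 10002 bp at E17.5. The regions just outside it had shortest lists of 9974 and 9996 bp, and of 9992 and 9999 bp.

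Between the stages, 757 domains were longer in every wild type E17.5 list than in either E11.5 list, 84 were shorter, and 183 overlapped. Over all 16535 regions, 69.9% were longer and 11.9% were shorter in this sense, and the rule used the same lists, so nothing is read from these counts. On autosomes 750 were longer and 83 shorter. With the same total peak length taken from each list, 615 of the 1024 were longer and 153 shorter.

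The domains that grew most had no peak or almost none at E11.5. A region whose nearest protein-coding start was that of the cell cycle gene Bora (chr14:99061979-99116702) held no such start itself. It was at 0 in both E11.5 lists and measured 54.7, 43.6 and 48.3 kb at E17.5. Within Ebf1, a factor of differentiating neurons, 2 domains of this group went from 0 in both E11.5 lists to 45.6, 37.3 and 36.5 kb (chr11:44650856-44696457) and to 35.4, 33.6 and 34.8 kb (chr11:44527406-44564937). At Zeb2, a zinc-finger repressor of neural development, a domain over the gene start (chr2:44983481-45009646) went from 0 in both lists to 23.1, 25.6 and 26.1 kb. The 8 that grew most also included regions near Tle3, Nampt and Cypt12 and within Cdhr3, and Zeb2 was the only one of the 8 with a protein-coding start inside. All 8 were called longer in the humanized lists, by log2 differences of 3.92 to 5.43.

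The domains that shrank most overlapped gene bodies. Within Ptn, which encodes the growth factor pleiotrophin, a domain (chr6:36742121-36765718) measured 23.6 and 16.9 kb at E11.5, then 0, 0.259 and 0 kb at E17.5. Within the synaptic scaffold gene Erc2 (chr14:28087344-28107017) the lengths were 18.9 and 15.5 kb, then 0.265, 0 and 0 kb. Within Cdk14 (chr5:5257457-5273463) they were 16.01 and 12.86 kb, then 0 in each of the 3 lists. The others of the 8 lay within Slc8a1, Epsti1, Dennd1a, Zcchc7 and Clta. None of the 8 held a protein-coding start, and all 8 were called shorter in the humanized lists, by log2 differences of -4.58 to -3.11.

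The humanized lists, which the rule did not use, gave a test of stage. Lengths were compared as log2(joined bp + 1000) with limma over 16262 regions, leaving out the shifted coordinates of chromosome 13, and 997 of the 1024 domains entered. Of these, 352 were longer at E17.5 and 111 were shorter at an adjusted p under 0.05 (35.3% and 11.1%), and 534 were not called. Over all regions 22.9% were longer and 13% shorter. The median log2 difference was 0.19 for the domains and 0.28 for all regions. By wild type class, of 413 E17.5-only domains 220 were called longer and 7 shorter, of 128 E11.5-only domains 0 were longer and 72 shorter, and of 456 domains of both stages 132 were longer and 32 shorter. With equal total peak length the counts were 193 longer and 81 shorter, and leaving out 1 humanized list at a time gave 197 to 270 longer and 45 to 91 shorter. The lowest counts came without E17.5 replicate 1 for longer domains and without E11.5 replicate 2 for shorter domains.

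Repeat of the domains in the humanized lists was high on autosomes. Of 554 autosomal E11.5 domains, 540 (97.5%) also reached 10 kb in both humanized lists, and of 862 at E17.5, 664 (77.0%) reached it in all 3. On X, 10 of 39 E11.5 domains did so.

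The X-linked domains need their own account. Of 41 X domains 32 met the rule at E11.5 only, among them the third longest at E11.5 (chrX:102322402-102468847, with Cdx4, Chic1 and Tsx) and those over Iqsec2 and Zfx. Summed over these 32, H3K27me3 covered 1385 and 1193 kb in the wild type E11.5 lists and 60.5, 43.7 and 2243 kb in the E17.5 lists. In the humanized lists the sums were 2048 and 93.5 kb at E11.5, and 1400, 2496 and 29.2 kb at E17.5. The Iqsec2 domain, for example, measured 120 and 112 kb at E11.5 and 0, 0 and 141 kb at E17.5 in wild type. The stages therefore overlapped, and 1 of the 41 X domains was called in the humanized lists. Sex was not given for the pools. The wild type E17.5 H3K27me3 lists held 3, 3 and 0 peaks on chromosome Y, and every other H3K27me3 list held 0. Those with 0 included the lists with little on X, humanized E11.5 replicate 2 (0.668 Mb) and humanized E17.5 replicate 3 (0.392 Mb). The wild type H3K4me3 and CTCF lists each held 6 to 8 Y peaks at E17.5. Sex composition was not tested as a cause. 7 X domains met the rule at both stages, among them those over Sox3, Gpr50, Irs4 and Esx1.

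**Figure D2:**
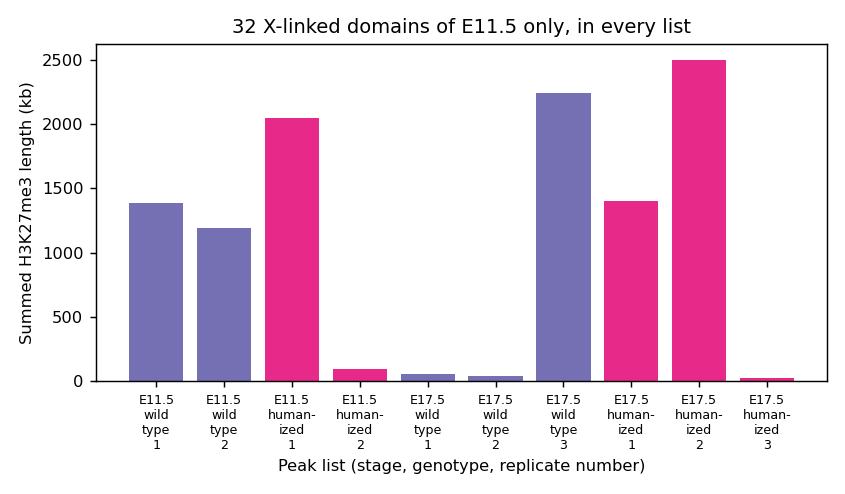
Summed joined H3K27me3 length in kb (y axis, from 0) over the 32 X-linked domains that met the rule at E11.5 only, in each of the 10 H3K27me3 lists (x axis; stage, genotype and replicate number). Wild type lists are violet and humanized lists pink. The sums fall between 29.2 and 2496 kb, and lists of either stage are found at both ends.

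In total, 609 of the 1024 domains held the start of a protein-coding gene, 518 of them 1 start and 91 more than 1, up to 12 in the HoxA domain. Domains of both stages did so in 348 of 472 cases (73.7%), E17.5-only domains in 219 of 423 (51.8%) and E11.5-only domains in 42 of 129 (32.6%). Of the 415 without a protein-coding start, 192 overlapped the body of a protein-coding gene, 223 lay outside genes, and 168 held the start of a long noncoding RNA.

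The 757 genes that started inside were rich in transcription factors. All 39 Hox genes measured lay inside, as did 116 of 132 other homeobox factors (87.9%), 32 of 61 bHLH factors, 28 of 43 Gata, Zic and Gli zinc-finger factors, 22 of 45 forkhead factors, 11 of 16 T-box factors and 9 of 20 Sox factors. Over all 21613 measured protein-coding genes the share was 3.50%. Of 55 diencephalon factors 53 lay inside, also many that this tissue expressed. Of 25 hypothalamic neuropeptides Npy, which rose, and Adcyap1, which was not called, lay inside. Signalling ligands and antagonists of the Wnt, Fgf, Bmp and hedgehog families were inside in 28 of 84 cases and nuclear receptors in 9 of 47. Of the markers of other tissues, 8 of 9 for telencephalon, 12 of 12 for midbrain and hindbrain and 6 of 14 for meninges and choroid plexus lay inside, against 2 of 13 for endothelium and pericytes, 0 of 11 for blood and 0 of 9 for microglia. No gene of 14 used in every cell lay inside, and of 36 Polycomb complex genes Cdkn2a (a target of the complex that the list also holds) and Pcgf1 did.

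Genes inside had lower median RNA than protein-coding genes as a whole, with a median of 1.52 to 1.86 CPM per wild type sample at E11.5 and 2.17 to 2.93 CPM at E17.5, against 5.04 to 5.18 and 6.63 to 6.82 CPM over all protein-coding genes. Under 1 CPM were 42.7% to 45.2% of genes inside at E11.5 and 37.7% to 42.6% at E17.5, against 39.9% to 40.2% and 36.6% to 37.2% of all protein-coding genes. Of the genes inside, 51 of 756 had no count in any wild type sample. These 756 include 240 genes of E17.5-only domains and 56 of E11.5-only domains. The values of a stage are thus not those of genes inside a domain of that stage alone. In bulk tissue, fewer cells that express a gene and less RNA per cell cannot be told apart, nor can cells with the mark and cells with the RNA.

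The 4 Hox clusters were close to silent. Summed over the 11 HoxA genes, the wild type samples held 0.667, 0.796, 0.759 and 1.30 CPM at E11.5 and 0, 0.0544, 0 and 0 CPM at E17.5. HoxB, HoxC and HoxD sums were at most 0.354 CPM at E11.5 and at most 0.272 CPM at E17.5.

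RNA of the stages was then compared in wild type, 4 samples against 4. Of 756 genes inside with counts, 517 passed the filter and 239 did not. At an adjusted p under 0.05 and a change of at least 2-fold, 153 genes rose from E11.5 to E17.5, 174 fell and 190 were not called, which is 29.6% and 33.7% of those that passed. Over all 18583 genes tested, 23.8% rose and 16.8% fell. The filter keeps a gene that is low at 1 stage if it is high at the other, so the shares describe only genes that passed. The median log2 change was -0.167 inside and -0.0147 over all genes. All genes inside are protein-coding. Of the 14349 protein-coding genes tested, 26.1% rose and 14.9% fell, with a median log2 change of 0.0656. Without wild type E17.5 replicate 1, 152 rose and 196 fell, and 146 of the 153 and 174 of the 174 were called again. On autosomes 147 rose and 170 fell. Humanized samples, fitted on their own, gave 144 and 201.

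The largest rises were in genes next to undetected at E11.5. Six6, printed above, went from 0, 0.053, 0.0506 and 0 CPM to 8.62, 14.2, 12.7 and 11.2 CPM (log2 change 8.58 ± 0.47, SE, edgeR adjusted p = 4.77e-07). This rests on 2 reads at E11.5, and the ratio of reads has a 95% interval with a lower bound of 121 for counting error. Vax1, a ventral forebrain and optic nerve factor, went from 0.053 CPM in 1 sample and 0 in the others to 9.83, 5.55, 4.63 and 3.54 CPM (8.33 ± 0.67). It rests on 1 read at E11.5 (ratio of reads 434, 95% interval 77.5 to 17200, counting error), and without E11.5 replicate 2, which held that read, the log2 change of Vax1 was 9.93. The groups did not overlap for these genes, and both stayed inside domains at both stages, with spans of 76.7 and 46.0 kb. The Six6 domain was called longer in the humanized lists.

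Other large rises were in genes of varied function. Kitl, the ligand of the receptor Kit, had 5.54, 3.77, 10.3 and 5.68 CPM at E11.5 and 225, 683, 573 and 727 CPM at E17.5 (log2 change 6.43 ± 0.49, adjusted p = 2.32e-06). Its domain measured 27.5 and 28.4 kb at E11.5 and 27.7, 24.2 and 23.3 kb at E17.5, and was called shorter in the humanized lists. Bcan, an extracellular matrix proteoglycan of brain, rose from 0.103 to 0.568 CPM at E11.5 to 30.4 to 58.6 CPM at E17.5. Slc6a3, the dopamine transporter, rose from 0.0506 to 0.308 CPM to 11.7 to 18.0 CPM. Tbr1, a glutamatergic neuron factor, rose by 6.23 ± 0.45 and Vgf, a secreted neuropeptide precursor, by 5.86 ± 0.33 on the log2 scale. Fam43b, Kcnc4, Irs4, Cfap65, Tcte1, Plk5 and Gpr12 were also among the largest rises, with log2 changes of 5.90 to 7.28. Plk5 and Fam43b had counts in 1 E11.5 sample each, and without it (replicate 2 and replicate 3) their log2 changes were 9.18 and 10.46. These genes were named among genes whose stages did not overlap.

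The largest falls included genes of early progenitors and patterning. Olig3, a bHLH factor of thalamic progenitors, had 91.2, 86.6, 58.8 and 54.6 CPM at E11.5 and 0.941, 0.707, 0.945 and 1.05 CPM at E17.5 (log2 change -6.31 ± 0.27, adjusted p = 2.87e-07). Its domain measured 35.8 and 36.3 kb at E11.5 and 58.3, 50.2 and 51.3 kb at E17.5, and was called longer in the humanized lists. Hmga2, a chromatin protein of fetal stem cells, had 205, 234, 215 and 230 CPM, then 2.72, 3.64, 3.13 and 2.36 CPM (-6.23 ± 0.22, adjusted p = 2.26e-07), and its domain met the rule at E17.5 only. Dbx1 had 158, 184, 111 and 123 CPM, then 4.97, 1.96, 4.13 and 3.54 CPM (-5.31 ± 0.32, adjusted p = 6.98e-07). In each of the 3 the E17.5 samples lay far below the E11.5 samples.

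Helt fell from 8.77 to 10.6 CPM at E11.5 to 0.337 CPM in 1 sample and 0 in the others. Neurog1, a proneural factor, fell by 6.23 ± 0.43 and Dmbx1 by 5.50 ± 0.37 on the log2 scale. Msx2 and Wnt3a, both of the roof plate, fell by 6.02 ± 0.39 and 5.34 ± 0.66. Trim71, a heterochronic gene of early embryos, Nkx1-2, Nkx2-9, Esrp1, Evx2 and Irx4 were also among the largest falls, with falls of 4.49 to 5.96. Irx4 rested on 78 reads at E11.5 and 3 at E17.5 (95% interval of the ratio 9.23 to 139, counting error). The E17.5 reads of Helt and Irx4 were all in replicate 4, without which their log2 changes were -10.61 and -7.25. Leaving out 1 E17.5 sample also moved Wnt3a to -6.98 (replicate 1), Msx2 to -6.62 (replicate 4) and Esrp1 to -5.72 (replicate 3), and all of these genes kept their calls.

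**Figure D3:**
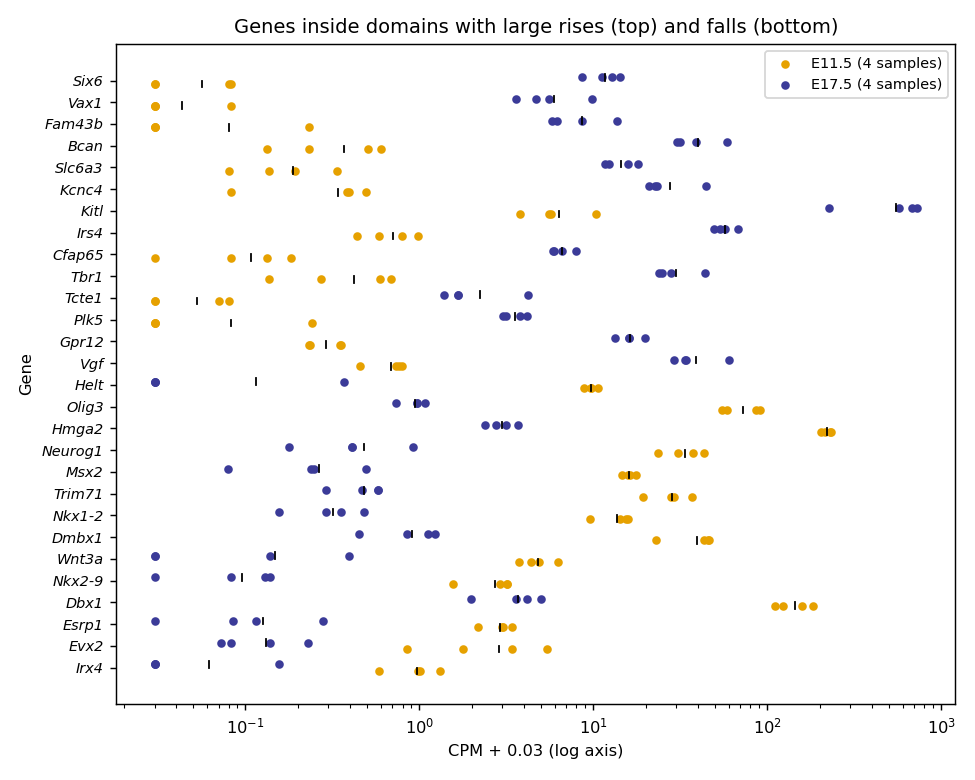
Wild type RNA of 14 genes inside domains with large called rises (top) and 14 with large called falls (bottom), as CPM plus 0.03 on a log axis. Each point is 1 of 4 samples per stage and the black tick is the mean. Genes were named among those whose stages did not overlap, and Kitl reaches the highest level of those that rose, 727 CPM.

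Called genes were counted by gene list, to be read against the 23.8% that rose and 16.8% that fell over all 18583 genes tested. For the 14349 protein-coding genes among them the shares were 26.1% and 14.9%. Of 79 tested homeobox factors outside the Hox clusters, 15 rose, 47 fell and 17 were not called, with a median log2 change of -1.74. Among bHLH factors 4 rose and 13 fell of 21, and among forkhead factors 2 rose and 8 fell of 16. No Sox factor rose and 4 of 9 fell, among them Sox1, a neural progenitor factor, from 156 to 188 CPM at E11.5 to 45.4 to 78.2 CPM at E17.5. Sox2 had 232 to 253 CPM at E11.5 and 136 to 199 CPM at E17.5 and did not reach a 2-fold change (log2 change -0.65 ± 0.17). Of 8 T-box factors 3 rose (Tbr1, Eomes and Tbx3) and 2 fell (T and Tbx18), and of 9 nuclear receptors 3 rose (Nr5a1, Esrrg and Ppara) and Nr2e1 fell, lists too small to set against those shares.

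Diencephalon factors were called in both directions. Of 52 tested, 15 rose, 23 fell and 14 were not called. The shares over all genes were 23.8% and 16.8%, and over protein-coding genes 26.1% and 14.9%. Among those that rose, besides Six6, Hmx2 went from 0 to 0.159 CPM to 3.33 to 6.38 CPM, Isl1 from 1.54 to 6.47 CPM to 46.2 to 54.5 CPM, and Otp from 7.89 to 22.4 CPM to 31.6 to 66.8 CPM. Prox1, found in thalamic and other neurons, went from 21.4 to 40.5 CPM to 134 to 287 CPM. Those that fell included Neurog2, Otx2, Irx3 and Gata2: Otx2 had 274, 285, 333 and 308 CPM at E11.5 and 41.0, 34.6, 34.4 and 32.6 CPM at E17.5. Nkx2-1 itself had 13.8 to 50.3 CPM at E11.5 and 33.0 to 65.6 CPM at E17.5 and was not called (adjusted p = 0.355).

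Of 22 tested ligands and antagonists of the Wnt, Fgf, Bmp and hedgehog families, 5 rose and 11 fell. Shh, the ligand of floor plate and zona limitans, went from 65.1 to 93.4 CPM to 4.85 to 8.36 CPM, and Wnt1 from 3.19 to 5.72 CPM to at most 0.575 CPM. Gli2 and Gli3, which transduce the hedgehog signal, fell by 4.11 ± 0.27 and 3.82 ± 0.23 on the log2 scale. Fgf9 rose by 3.85 ± 0.33. All 6 meninges and choroid plexus markers inside (Twist1, Otx2, Foxd1, Col1a1, Prrx1 and Foxc1) fell. The 14 markers of that list summed to 1810 to 2290 CPM at E11.5 and 670 to 1010 CPM at E17.5, and the 11 blood markers to 1690 to 3690 and 242 to 1020 CPM. The part of these cells in the falls was not tested.

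**Figure D4:**
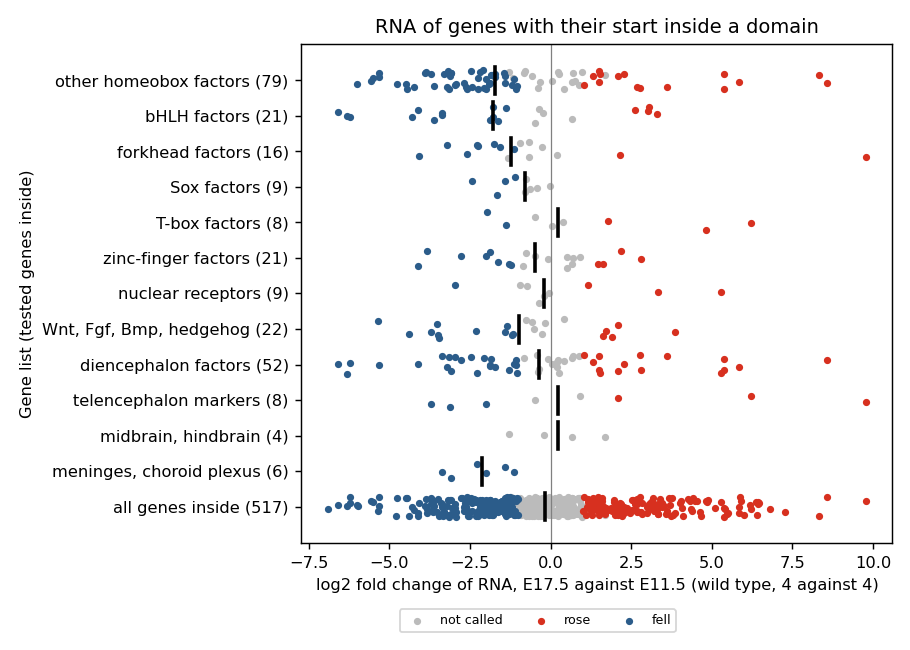
log2 fold change of RNA between E17.5 and E11.5 in wild type (x axis) for tested genes that start inside a domain, by gene list (y axis, number of tested genes in brackets). Points are genes, red where they rose, blue where they fell and grey where not called, and the black tick is the list's median, which was -1.74 for the other homeobox factors and -0.167 for all genes inside.

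Length and RNA were set side by side, with lengths called in the humanized lists and RNA called in wild type, so that the values did not share samples. Of 175 tested genes in domains called longer, 37 rose (21.1%) and 78 fell (44.6%), with a median log2 change of -0.886. Of 29 tested genes in domains called shorter, 15 rose (51.7%) and 6 fell (20.7%), with a median of 1.17. In domains not called, 95 of 301 rose and 86 fell. Over all 18583 genes tested, 23.8% rose and 16.8% fell. Of the protein-coding genes tested, 26.1% rose and 14.9% fell. Genes in lengthened or shortened regions that were not domains were not counted. Whether these shares are particular to domains was therefore not tested. With equal total peak length, 17 rose and 43 fell of 104 genes in longer domains, and 8 rose and 4 fell of 19 in shorter domains. Genes of lengthened domains that rose included Six6, Bcan, Hmx2 and Prox1.

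Some genes that started inside a domain of either stage were high in RNA. Per kb of exon, the highest levels at E11.5 were 172 CPM per kb for Ccnd2, a cyclin of dividing progenitors, 130 for Grb10, an imprinted growth regulator, and 116 for Sox2 and for Tcf7l2, a Wnt effector and thalamic factor. At E17.5 they were 134 CPM per kb for Tcf7l2, 112 for Zic1 and 99.9 for Nefl, a neurofilament subunit. The Ccnd2, Tcf7l2 and Nefl domains met the rule at E17.5 only, so the E11.5 levels of these genes are not levels inside a domain of that stage. The Grb10, Sox2 and Zic1 domains met it at both stages. Ccnd2 fell from 1470 to 1740 CPM to 104 to 159 CPM, while Tcf7l2 had 877 to 1330 CPM and 1020 to 1360 CPM and was not called (adjusted p = 0.385). Zic1 had 350 to 427 CPM at E11.5 and 565 to 702 CPM at E17.5, under the 2-fold minimum (log2 change 0.69 ± 0.16).

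No gene inside was called between the genotypes. At E11.5, 0 of 487 and at E17.5, 0 of 489 tested genes inside were called with edgeR (adjusted p under 0.05), and over all genes the shares were 0% and 0%. DESeq2 also called 0 inside at either stage. At an unadjusted p under 0.05 there were 31 (6.37%) and 12 (2.45%), against 5.94% and 1.10% of all genes. A p that misses the threshold does not show that the genotypes had the same RNA.

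Active marks lay within the spans of the domains as well. All domains were counted at both stages, also those that met the rule at the other stage only. A mark counted here need not lie in H3K27me3 of its own stage. The Zeb2 span, without H3K27me3 in both wild type E11.5 lists, was 77.8% covered by H3K27ac at E11.5. The span within Ptn, at most 0.259 kb of H3K27me3 in wild type at E17.5, was 52.1% covered at E17.5. H3K4me3 peaks, the mark of CpG-rich promoters, covered 10.8% to 12.4% of domain length over the 5 lists, against 1.47% to 1.60% of the genome. H3K27ac is a mark of active promoters and enhancers that excludes H3K27me3 on the same histone tail. The paper reports that its antibody lot also bound an acetylation of another histone (H2BK5ac), so the peaks may hold both. H3K27ac peaks covered 6.20% and 5.47% in the E11.5 lists. The E17.5 lists gave 10.4%, 11.3% and 11.4%. Over the genome H3K27ac covered 1.12% and 0.981% in the E11.5 lists and 2.41%, 2.84% and 2.93% in the E17.5 lists. The share thus rose over the genome too. H3K4me3 was present in every E11.5 list in 778 domains and in every E17.5 list in 765. For H3K27ac these numbers were 378 and 556. Regions that were not domains were not counted in this way.

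At gene starts (within 500 bp), H3K4me3 was called in every list for 566 of 756 genes inside at E11.5 (74.9%) and 551 at E17.5 (72.9%), against 59.1% and 59.5% of protein-coding genes. H3K27ac was called at 185 (24.5%) and 294 (38.9%), against 43.1% and 53.0%. Of the 153 genes that rose, 18 had H3K27ac at the start at E11.5 and 85 at E17.5. Of the 174 that fell, 99 had it at E11.5 and 94 at E17.5. Genes that rose or fell outside domains were not counted, so these counts are not read as particular to domains. The genes inside start in a domain of either stage. The starts of Kitl and Six6 had H3K27ac called in all 3 E17.5 lists but not in both E11.5 lists. Among the 239 genes that did not pass the count filter, 118 had H3K4me3 and 5 had H3K27ac at E11.5.

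CTCF at the edges was examined at E17.5. Of the 1794 edges of the 897 domains, 648 (36.1%) had the centre of a CTCF peak called in all 3 wild type lists within 5 kb. Single lists gave 46.1%, 39.9% and 40.8% (42.3% ± 3.36, SD, n = 3), and the humanized lists 38.5% ± 1.62 (n = 3). Both edges had CTCF in 137 domains, 1 edge in 374 and neither in 386. For 13586 E17.5 regions that were not domains the share was 42.9% of edges, whose 2 windows overlap in short regions. Where a protein-coding start lay within 5 kb of the edge, CTCF was there at 169 of 276 domain edges (61.2%), and elsewhere at 479 of 1518 (31.6%). Other regions gave 58.9% and 36.0%. The share with CTCF was 17.7% within 2 kb and 59.4% within 10 kb.

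The density of CTCF peaks was given by distance from the edge. From 50 to 2.5 kb outside a domain it lay between 3.08 and 3.99 peaks per 100 kb. It was 5.82 in the last 2.5 kb outside, 4.04 in the first 2.5 kb inside and 6.15 in the next 2.5 kb. Over whole domains it was 5.62, against 1.89 over the genome. Regions that were not domains had 6.48 in the last 2.5 kb outside and 3.68 to 3.89 farther away. No CTCF peak of all 3 lists lay inside 284 of the 897 domains (31.7%). Edges of E11.5-only domains had an E17.5 CTCF peak in 28.7% of cases, those of both stages in 35.6% and those of E17.5 only in 35.1%.

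**Figure D5:**
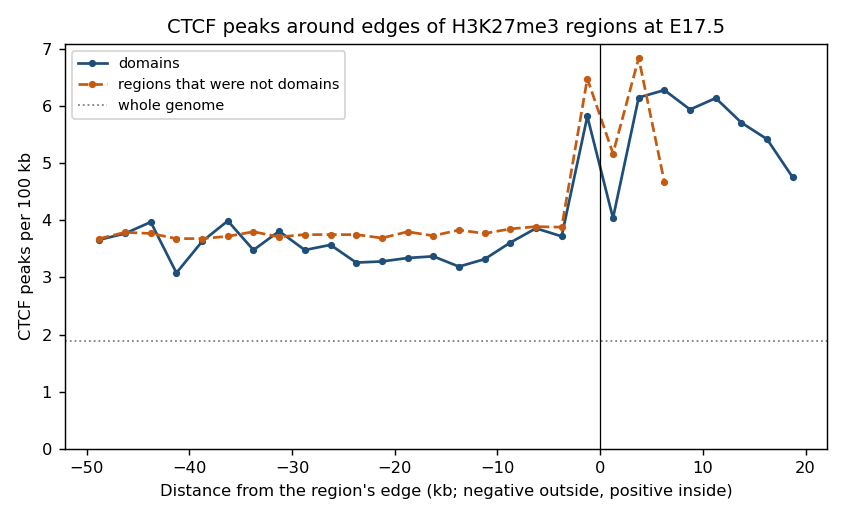
CTCF peaks called in all 3 wild type E17.5 lists, per 100 kb (y axis, from 0), by distance from the edge of an H3K27me3 region in bins of 2.5 kb (x axis, negative outside). The solid line is the 897 domains, the dashed line the 13586 other regions, and the dotted line the genome mean of 1.89. Bins with under 200 windows are not drawn.

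To show what lies at domain edges, 6 of the strongest CTCF peaks there are printed. Each is given as 101 bases around the peak centre on the plus strand of mm39. Matches to AGNNGGC (a stretch of the CTCF motif, searched on both strands) are in capitals.
Neurog1 domain, chr13:56345431-56345531: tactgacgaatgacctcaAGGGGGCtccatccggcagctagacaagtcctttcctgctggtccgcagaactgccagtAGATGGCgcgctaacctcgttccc
Slc6a5 domain, chr7:49573321-49573421: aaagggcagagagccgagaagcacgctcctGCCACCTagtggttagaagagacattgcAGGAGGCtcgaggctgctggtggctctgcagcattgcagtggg
Domain near Skida1, chr2:18032326-18032426: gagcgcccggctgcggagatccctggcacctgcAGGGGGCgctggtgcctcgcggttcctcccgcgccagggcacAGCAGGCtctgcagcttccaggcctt
Gas1 domain, chr13:60326412-60326512: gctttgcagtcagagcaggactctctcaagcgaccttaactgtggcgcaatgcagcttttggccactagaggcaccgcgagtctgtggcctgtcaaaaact
Domain near Fbxo44, chr4:148255362-148255462: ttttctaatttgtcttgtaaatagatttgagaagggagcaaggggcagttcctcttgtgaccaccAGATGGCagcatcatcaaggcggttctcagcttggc
Bcan to Hapln2 domain, chr3:87894392-87894492: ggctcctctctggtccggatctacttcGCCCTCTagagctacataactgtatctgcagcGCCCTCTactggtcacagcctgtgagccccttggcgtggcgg
The peak 598 bp inside the start of the Neurog1 domain had fold enrichments of 70.0, 61.2 and 67.6 over local background in the 3 lists. The peak 2049 bp beyond the end of the Slc6a5 domain lay within that gene, a glycine transporter, and had 67.4, 65.0 and 56.6. The peak 543 bp before the domain near Skida1 had 72.0, 55.9 and 60.4, and that 1111 bp before the Bcan domain 72.0, 54.7 and 58.4. The peak 171 bp beyond the end of the Gas1 domain had 60.8, 63.7 and 63.8, and that 2508 bp inside the domain near Fbxo44 had 69.6, 59.0 and 58.8. The Gas1 window held 0 matches, the window near Fbxo44 held 1, and the other 4 held 2 each. Of the 860 CTCF peaks within 5 kb of a domain edge 555 (64.5%) held this motif, compared with 30185 of 51511 CTCF peaks (58.6%) and 15.2% of 576433 windows of the same length tiled on chromosome 19.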

How the data were processed

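The deposited RNA files hold the raw count of reads per gene from STAR 2.7.9a on mm39, which the authors annotated with GENCODE release 31. Lines that name no gene (48.1% to 58.4% of reads) were left out. Release M39 gave names and positions for 56236 of 56923 gene IDs. Deposited peak lists, made with Bowtie2 2.4.2 and MACS2 2.2.7.1 per the labels, give a fold enrichment (ratio) and a −log10 q-value per peak. The columns of the H3K27me3 files are those of broad peaks, and the calling settings are not given in the sources used here. Humanized ChIP reads were aligned to a genome with the human sequence.

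Peaks were joined in Python 3.11.15. A gene was inside when its start lay in a domain. Counts were filtered with filterByExpr, scaled by TMM and tested with edgeR 4.0.16 (quasi-likelihood, Benjamini-Hochberg), with DESeq2 1.42.0 as an alternative, and lengths with limma 3.58.1. Replicates were separate litters. Peak lists hold no read depth. Tests were tested on simulated data. The domains, gene lists and tests were chosen with earlier results of these data known. Some genes are not reported here. Named were the 10 longest domains per stage, the 8 that grew and shrank most, the 15 largest separated rises and falls, the 10 highest per kb, and list members. Alternatives without X, and those of length beside RNA, were added after seeing the data.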

Additional observations from a re-analysis of the deposited data

Results flagged for a closer look

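In groups of 4 samples of 1 stage and genotype, nearly all wild type, a single sample lay far from the other 3 for 16 of 138 sets of values (11.6%). All flagged sets were wild type. The sets share samples, and a set with counts in 1 sample alone is always flagged. No rate by chance is therefore set beside this share. Of the 12 sets from E17.5, 10 had replicate 1 apart, and each of those 10 was high there. Its CPM against the range of the others was 44.3 against 20.9 to 23.1 for Kcnc4, 4.18 against 1.35 to 1.64 for Tcte1, 199 against 136 to 144 for Sox2, and 782 against 231 to 264 for Islr2. It was 307 against 121 to 133 for Cbln1, 13.1 against 3.98 to 4.47 for Neurod2, 12.2 against 4.30 to 5.38 for Sox3, and 78.2 against 45.4 to 46.7 for Sox1. It was 34.8 against 15.7 to 16.4 for Fezf1 and 0.314 against 0 to 0.0498 for Emx1. The cause was not tested.

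The other sets were near 0 or held 1 low sample. At E17.5, replicate 4 had 0.337 CPM for Helt and 0.126 CPM for Irx4, with the others at 0. At E11.5, replicate 3 had 0.202 CPM for Fam43b, and replicate 2 had 0.053 CPM for Vax1 and 0.212 CPM for Plk5, with the others at 0. Dmbx1 had 23.0 CPM in E11.5 replicate 1, against 43.3 to 46.0 CPM.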

How the results depend on the processing

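Of 152 alternative values of the counts and shares, 131 stayed close to the reported ones (counts within 1.5 times) and 21 moved. A minimum of 20 kb left 218 domains at E11.5, 301 at E17.5 and 343 in all, with 326 genes inside, and joining peaks within 3 kb gave 1354 domains at E17.5 and 1598 in all. Leaving out 1 wild type list at a time gave 601 to 940 domains at E11.5 (940 without E11.5 replicate 2) against 601 merged domains with all lists. Whole gene bodies inside numbered 400. With the same total peak length from each list (38.06 Mb), 153 domains were shorter in wild type, 193 were called longer in the humanized lists, 43 genes of longer domains fell and 17 rose, and 8 genes of shorter domains rose. Leaving out 1 humanized list gave 197 to 270 longer domains and 45 to 91 shorter ones: 202 and 52 without E11.5 replicate 1, 45 shorter without E11.5 replicate 2, and 197 and 207 longer without E17.5 replicates 1 and 2. CTCF lay at 17.7% of edges within 2 kb, at 59.4% within 10 kb and at 48.2% with peaks of any list.

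Genes inside that rose numbered 144 to 184 and those that fell 170 to 201 over all RNA alternatives. A replicate block gave 149 and 178, and 0 between the genotypes. Deviations of same-numbered samples from their group means correlated from -0.550 to 0.584. Between the genotypes at E17.5, replicates 1 and 2 gave 0.540 and 0.584, each the best match of the wild type sample. Replicates 3 and 4 gave 0.0897 and 0.225 there and were not best matches. A shared effect of the number at E17.5 is therefore not excluded, and the main fits did not pair samples. Of 70 named genes, none changed direction, and Ncan reached the 2-fold minimum in 3 of the alternatives. Peak lists give no depth, which limits every length, and reads set the limit for genes under about 1 CPM.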
